A study of Mus musculus with 4 samples.

Results

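The oligoadenylate synthetase family, made of the Oas1, Oas2 and Oas3 synthetases and the Oas-like genes Oasl1 and Oasl2, was followed through 9 array probes in C2C12 cells given interferon-gamma (IFN-γ). The probes were all those whose transcript accession maps to Oas1a, Oas1b, Oas1f, Oas1g, Oas2, Oas3, Oasl1 or Oasl2 in the RefSeq gene table, 9 of 39429 probes that were not controls. They cover 7 of the 8 genes, since no probe's accession was paired with Oas1b, which the table lists as a transcribed pseudogene and which was not analysed here. A further 13374 probes have accessions without a symbol in that table, so probes of the family could be among them. C2C12 is an established mouse myoblast line. The treated cells were held in differentiation medium for 3 days with IFN-γ at 1 ng/ml, and the control cells for the same 3 days with no cytokine. The horse serum of that medium is given as 2% in one label and 10% in another. Each of the 4 Agilent arrays of 2 colours carried treated-cell RNA labelled with Cy5 and control-cell RNA labelled with Cy3, so dye and treatment cannot be told apart. The labels number the 4 treated samples as biological replicates and are silent on whether each array had a control culture of its own. The p-values therefore reflect array-to-array spread, part of which may be technical.

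Oligoadenylate synthetases are interferon-induced sensors of viral RNA. When they bind RNA with paired strands they join ATP into short chains with 2′-5′ bonds (2-5A), a messenger of antiviral defence. The Oas-like proteins share the fold, and mouse Oasl1 is known for holding back translation of the interferon regulator Irf7 and Oasl2 for making 2-5A in spite of its name. Interferons reach these genes through STAT and IRF transcription factors.

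By the brightest tested probe of each gene, 5 of the 6 genes that could be tested were higher in IFN-γ RNA than in control RNA. By the same count 18.8% of all 15678 genes were higher. The sizes within the family ranged widely. Oasl2, Oas1a, Oas1f and Oas2 rose by 4.27, 4.00, 3.39 and 2.22 on the log2 scale, Oasl1 rose by 0.48, and Oas3 had 0.29 and did not pass. Probes for Oas1g were not well above background in either RNA. Counted by probe, 6 of 7 tested probes were called higher and 0 lower at an adjusted p under 0.05 (limma), when 16.5% of the 28933 tested probes on the array were called higher. The normalised intensities of the groups did not overlap for 6 of the 7, with treated RNA higher, as for 17.8% of all tested probes. 5 of the 7 were also at least 2-fold higher, against 1.44% of all tested probes. The median over the 7 was 2.31, and over all tested probes it was 0.01. In bulk RNA, more cells that express a gene and more RNA per cell cannot be told apart. Testing required signal well above background on 3 or more of the 4 arrays, in treated or in control RNA. Oasl1, counted among the higher genes and probes, and Oas3 met this through treated RNA alone. Their control RNA was well above background on 1 and 0 of the 4 arrays. Oasl2, Oas1f and Oas2 were well above background in both RNAs on all arrays. Each log2 ratio is IFN-γ over control after loess normalisation within the array.

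Median spot intensities ran between 149.5 and 264 for treated RNA and between 79.8 and 97 for control RNA, and 28582 to 30161 probes were well above background for treated RNA, against 22492 to 25928 for control RNA. Across tested probes the arrays correlated at 0.54 to 0.89 (Pearson's r over probes, which are not independent). All 8 muscle markers were well above background in both RNAs on all arrays. By their brightest probes 1 rose, Myf5 (0.60), and 4 fell, Des (−1.23), Ckm (−1.12), Mymk (−0.90) and Myh3 (−0.62). The other 3, Myod1, Myog and Chrna1, did not pass, though the other Chrna1 probe had −0.62 (adjusted p = 0.00411, limma). By the same count 18.8% of all 15678 genes were higher and 12.9% lower. Of 8 leukocyte markers, cells in which the Oas genes are also expressed, 6 could be tested, of which 0 rose and Csf1r, by 1 of its 3 probes, and Cd3e fell by 0.40 and 0.44. Spi1 was not well above background, and the summed intensity of the list ran between 44644 and 71306 in treated RNA and between 56568 and 79952 in control RNA. The sum is nearly all 1 Itgam probe, with 43185 to 69642 in treated RNA and 54632 to 77859 in control RNA, while the gene's other probes had at most 193 in treated RNA and 239 in control RNA. Of 3 tested fibroblast markers Pdgfra and Col1a1 rose by 0.67 and 0.46 and Dcn did not pass. Of 3 tested endothelial markers Kdr fell by 1.02 on its brightest probe, and Pecam1 and Tek did not pass. The other Kdr probe was too dim to be tested, with 73.6 to 76.8 in treated RNA against 1066 to 2160 for the brightest. The part of these markers' cells in the results below was not tested.

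**Figure D1:**
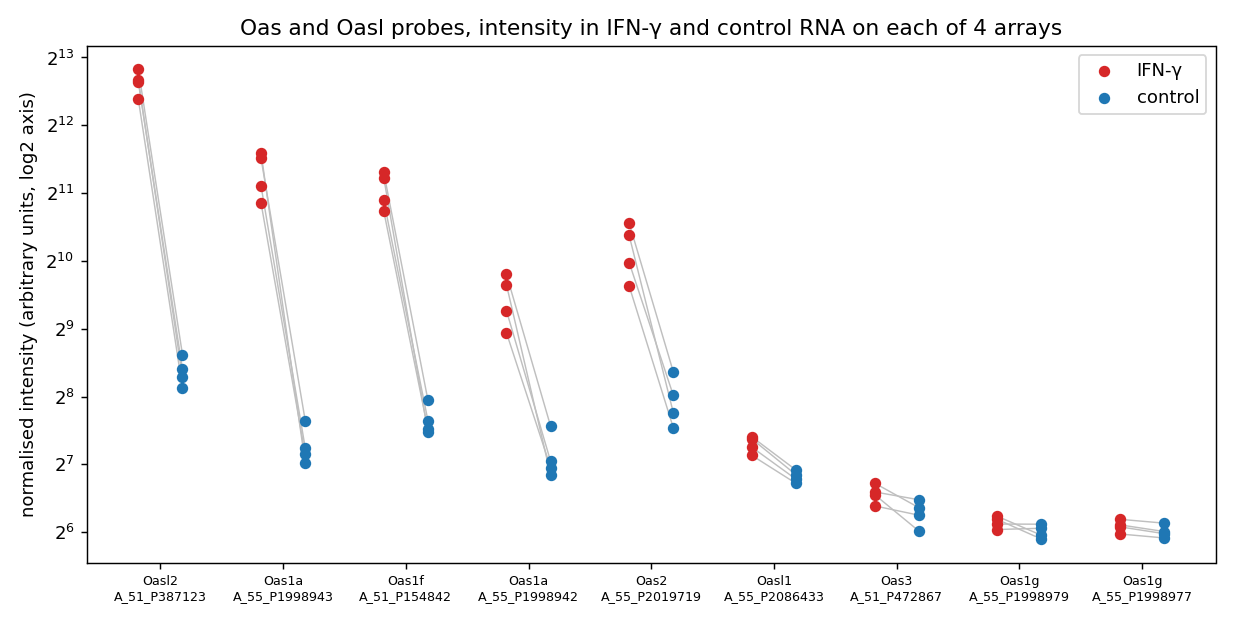
Normalised intensity (arbitrary units, log2 axis) of the 9 Oas and Oasl probes in IFN-γ RNA (red) and control RNA (blue), with a grey line joining the RNAs of each of 4 arrays. The treated points of Oasl2, Oas1a, Oas1f, Oas2 and Oasl1 lie above all their control points, and those of Oas3 and Oas1g overlap with them.

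Oasl2 had the largest mean ratio of the family after loess, whereas Feature Extraction's ratios put Oas1a A_55_P1998943 first, with 6.17 against 4.88. The normalised intensity of Oasl2, in arbitrary units that include an offset of 50, was 6513, 6380, 7251 and 5347 in treated RNA on arrays 1 to 4. In control RNA it was 312, 338, 392 and 279. Every treated value lay above every control value, and the ratio hardly varied, with 4.38, 4.24, 4.21 and 4.26 on the 4 arrays. The mean log2 ratio was 4.27 ± 0.08 (SD, n = 4), a 19.3-fold rise with an adjusted p of 6.18e-06 (limma), which placed Oasl2 28th among the 28933 tested probes. Oasl1, its neighbour on chromosome 5, had a smaller ratio. Its intensity was 166, 169, 152 and 140 in treated RNA and 115, 121, 110 and 105 in control RNA. The groups did not overlap, and the log2 ratio of 0.48 ± 0.05 (SD, n = 4) passed with an adjusted p of 0.00414 (limma), a 1.39-fold difference. The control signal of Oasl1 was well above background on 1 of 4 arrays. Its direction was lost when the arrays were centred on the tested probes without loess, where the ratio was −0.07. As normalised here, the ratio of Oasl2 exceeded that of Oasl1 by 3.80 ± 0.06 (SD, n = 4), on 4 of 4 arrays, a size that moves with the dim Oasl1 signal, whose ratio lay between −0.07 and 1.30 over the alternatives. With 4 arrays an exact two-sided sign-flip test cannot give a p below 0.125, so differences between members are given by their size and spread.

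Among the Oas1 genes, which encode proteins with a single synthetase unit, not all of them known to make 2-5A, Oas1a and Oas1f rose strongly and the probes of Oas1g were at background. The brighter probe of Oas1a, A_55_P1998943, had intensities of 3088, 2205, 2922 and 1851 in treated RNA, against 130, 152, 200 and 142 in control RNA. The groups lay far apart on every array, and control RNA was well above background on 3 of them. Its log2 ratio was 4.00 ± 0.39 (SD, n = 4), a 16.02-fold rise with an adjusted p of 6.42e-05 (limma). The other Oas1a probe, A_55_P1998942, had 803, 491, 892 and 616 in treated RNA and 115, 124, 189 and 132 in control RNA. It rose by 2.31 ± 0.35 (SD, n = 4, adjusted p = 0.000411, limma), again with no overlap. The probes of Oas1a gave ratios that differed by 1.69 ± 0.17 (SD, n = 4), with the first higher on 4 of 4 arrays.

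Oas1f, another gene of this group, had 2397, 1900, 2531 and 1704 in treated RNA and 178, 200, 247 and 184 in control RNA. Its treated values were all above its control values, and both RNAs were well above background on all arrays. The log2 ratio was 3.39 ± 0.25 (SD, n = 4), a 10.5-fold rise with an adjusted p of 3.3e-05 (limma). Oas1g, a close relative of Oas1a, had 73.0, 62.8, 68.9 and 67.6 in treated RNA and 70.2, 60.3, 64.4 and 63.0 in control RNA on its probe A_55_P1998977. Its other probe, A_55_P1998979, had 72.9, 75.3, 69.5 and 65.8 in treated RNA and 59.6, 62.0, 69.4 and 66.6 in control RNA. Neither probe was well above background in either RNA on any array, so neither was tested and no fold is given. How far the probes of any Oas1 gene bind transcripts of another was not tested, and the transcript sequences of these genes were not compared.

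**Figure D2:**
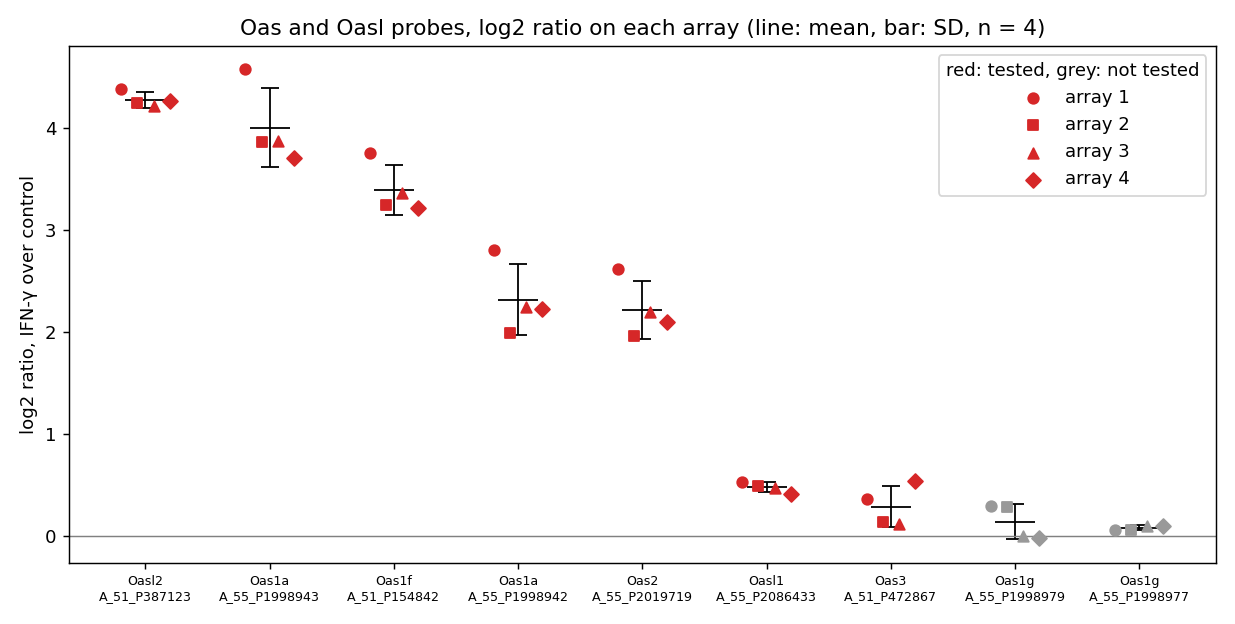
Log2 ratio of IFN-γ over control for the 9 Oas and Oasl probes on each of the 4 arrays (symbols), with the mean (line) and SD (bar). Probes of Oasl2, Oas1a, Oas1f and Oas2 lie at 1.96 or higher on every array, Oasl1 and Oas3 at 0.54 or lower, and the grey Oas1g probes at 0.29 or lower.

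The larger synthetases, Oas2 and Oas3, had unequal readings. Oas2, which carries a pair of synthetase units of which 1 is catalytic, had 1328, 1007, 1506 and 792 in treated RNA and 217, 259, 329 and 186 in control RNA. All treated values were above all control values. Oas2 rose by 2.22 ± 0.28 (SD, n = 4), or 4.64-fold, with an adjusted p of 0.000244 (limma). Oas3, the longest synthetase of the family, had 106, 83.7, 96.6 and 93.9 in treated RNA and 82.3, 76.1, 89.2 and 64.8 in control RNA. Its treated value was the higher one on each of the 4 arrays, but the groups overlapped, and control RNA was not well above background on any array. The ratio of Oas3 was 0.29 ± 0.20 (SD, n = 4) with an adjusted p of 0.0609 (limma). Without replicate 2 the ratio was 0.34 and passed with an adjusted p of 0.0235 (limma), and it had 1.06 with Feature Extraction's own ratios (adjusted p = 0.012, limma). Under median centring and under centring on the tested probes the ratio of Oas3 turned negative, with −0.24 (adjusted p = 0.0918, limma) and −0.71, which passed as lower (adjusted p = 0.00156, limma).

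Ordered by log2 ratio after loess, the probes ran Oasl2, Oas1a A_55_P1998943, Oas1f, Oas1a A_55_P1998942, Oas2, Oasl1 and Oas3. The first 2 changed places with Feature Extraction's ratios and in the authors' deposited table, and Oas2 lay above the second Oas1a probe under median centring (2.98 and 2.86) and under centring on tested probes (2.51 and 2.39). The step between Oasl2 and the first Oas1a probe was 0.27 ± 0.32 (SD, n = 4) and held on 3 of 4 arrays, and that between Oasl1 and Oas3 was 0.19 ± 0.23 on 3 of 4 arrays, both smaller than their spread. After loess the other 4 steps held on 4 of 4 arrays. The smallest was 0.10 ± 0.08 between the second Oas1a probe and Oas2, and the largest 1.74 ± 0.26 between Oas2 and Oasl1. These steps moved with the processing. In the authors' deposited table the second Oas1a probe lay above Oas1f on array 2, with 4.66 against 4.37. The means there were 4.44 for Oas1f, 4.12 for the second Oas1a probe and 2.92 for Oas2. Array 1 gave the highest ratio after loess for 6 of the 7 tested probes, and array 4 for Oas3. In the authors' deposited table array 2 was highest for both Oas1a probes, Oasl1 and Oasl2, and array 1 for Oas1f, Oas2 and Oas3. The per-array median over the 7 probes after loess was 2.80, 1.99, 2.24 and 2.22 on arrays 1 to 4.

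Along chromosome 5 the family forms a pair, Oasl2 and Oasl1, and a cluster that runs Oas2, Oas3, Oas1e, Oas1c, Oas1b, Oas1f, Oas1h, Oas1g, Oas1a and Oas1d in the gene table. Genes with large rises stood next to genes without them in that order. Oas1c, Oas1d, Oas1e and Oas1h, the remaining Oas1 genes on the array, were all dim. Oas1c rose by 0.53 ± 0.17 (SD, n = 4, adjusted p = 0.00775, limma). As normalised here, the rise was at least 1.44-fold against the higher of the control's own signal and the lowest signal called well above background. That bound was computed in this normalisation alone and is open to dye bias. Control RNA of Oas1c was not well above background on any array, and the ratio was −0.37 under centring on the tested probes (adjusted p = 0.0360, limma) and did not pass under median centring. Oas1d had 0.12 ± 0.08 and did not pass. Oas1e fell by 0.22 with an SD of 0.09 (adjusted p = 0.0496, limma), and no longer passed without replicate 1, 3 or 4 (−0.20, −0.22 and −0.20). Probes of Oas1h were not well above background in either RNA.

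**Figure D3:**
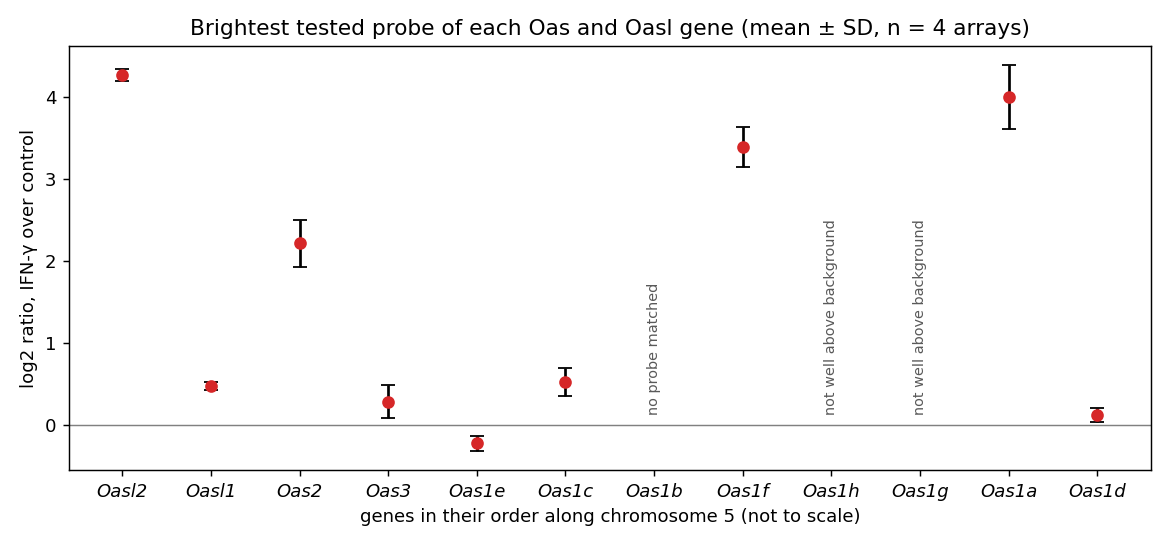
Log2 ratio of IFN-γ over control (mean ± SD, n = 4 arrays) of the brightest tested probe of each Oas and Oasl gene, placed in the order of the genes along chromosome 5, not to scale. Oas1f and Oas1a, at 3.39 and 4.00, are separated by Oas1h and Oas1g, whose probes were not well above background.

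Promoters are shown for 4 genes because they hold the matches found, and because Oas1a and Oas1g have close upstream sequences and unlike probe readings. RefSeq promoter windows on GRCm38.p6 (250 bases before to 50 after the start) were found for 6 of the 8 members, Oas1a, Oas1f, Oas1g, Oas3, Oasl1 and Oasl2, and for Oas1c and Oas1h. They were searched on both strands for GAAA followed after any 2 bases by GAAA, a spelling of the interferon-stimulated response element bound by interferon-activated factors, and for TTCNNNGAA, a spelling of the gamma-activated site. Both spellings were chosen with results of these data known. The sequences run 5′ to 3′ on the gene's strand, end at or before the base preceding the start, and carry matches to the response element in capitals.
Oas1a promoter, chr5:120907526-120907595, minus strand: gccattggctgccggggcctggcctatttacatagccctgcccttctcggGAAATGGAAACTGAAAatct
Oas1g promoter, chr5:120887614-120887681, minus strand: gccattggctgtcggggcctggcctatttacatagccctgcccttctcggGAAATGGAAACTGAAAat
Oas3 promoter, chr5:120777675-120777784, minus strand: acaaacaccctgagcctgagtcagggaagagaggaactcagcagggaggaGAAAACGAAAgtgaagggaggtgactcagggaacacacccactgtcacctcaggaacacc
Oas1c promoter, chr5:120812563-120812678, minus strand: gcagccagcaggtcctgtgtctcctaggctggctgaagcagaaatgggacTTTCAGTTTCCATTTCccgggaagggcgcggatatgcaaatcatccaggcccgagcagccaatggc

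Response element matches were present in the windows of Oas1a, Oas1g, Oas3 and Oas1c, and in 3.44% of all 32851 windows of the same length. In Oas1a, Oas1g and Oas1c 2 overlapping matches shared bases, on the gene's strand in Oas1a and Oas1g and on the opposite strand in Oas1c. The gamma-activated site spelling was in the Oas1a window alone of these 8, at 98 to 90 bases before the start, and in 8.30% of all windows. Over the 250 upstream bases Oas1a and Oas1g were identical at 212 of 244 aligned bases, or 86.9%, the closest pair of these genes, followed by Oas1f and Oas1h with 82.9%. In each of these pairs 1 gene rose strongly, Oas1a and Oas1f, and probes of the other were at background. Oas1f, Oasl1 and Oasl2 had no match to either spelling, which says only that these letters are not in their windows.

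**Figure D4:**
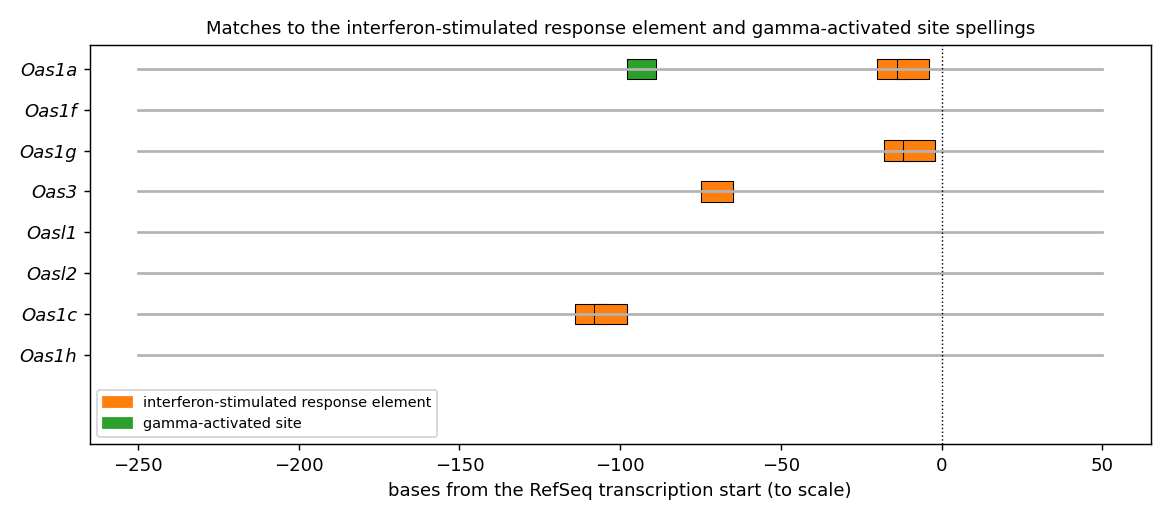
Matches to the response element spelling (orange) and the gamma-activated site spelling (green) in the RefSeq promoter windows of 8 Oas and Oasl genes, in bases from the transcription start, to scale. Response element matches are in 4 of the 8 windows, and Oas1a and Oas1g carry theirs within 20 bases of the start.

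Among genes that bear on 2-5A turnover, Enpp1, whose phosphodiesterase can break 2-5A, rose by 0.55 ± 0.11 (adjusted p = 0.00408, limma), and Abce1, a ribosome recycling factor of the same list, rose by 0.36 ± 0.21 (adjusted p = 0.0364, limma), which ended without replicate 1, 3 or 4 (adjusted p = 0.119 to 0.132), with Feature Extraction's ratios (0.0896), in the authors' deposited table (0.0897) and by the methods' t-test (0.0785). Pde12, another phosphodiesterase that cleaves 2-5A, had 0.19 ± 0.20 and did not pass. The brightest of 3 probes of Akap7, a gene with a 2-5A phosphodiesterase domain, had −0.66 ± 1.51, with 1.56 on replicate 2 and −1.62 to −0.99 on the other arrays. Without replicate 2 it had −1.40 and passed (adjusted p = 0.000378, limma). The other Akap7 probes had 0.27 (adjusted p = 0.0472, limma) and 0.23 (adjusted p = 0.0524, limma).

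Upstream, several transcription factor genes of interferon signalling rose, Irf1 by 2.74 among them (adjusted p = 4.11e-05, limma, with 0.29 on its other probe), while Jak1, Jak2, Tyk2, Ifngr1 and Ifngr2 did not pass. Ifnar1 had −0.21 on its brightest probe, which did not pass, and its other probes had 0.42 (adjusted p = 0.0224, limma) and 0.19 (adjusted p = 0.0590, limma). Of 14 tested genes for interferon signalling and transcription factors 6 rose, 0 fell and 8 missed the threshold, counting the brightest probe of each gene. Their median was 0.27. By the same count 18.8% of all 15678 genes were higher and 12.9% lower. Irf7 rose by 1.61 ± 0.30 (adjusted p = 0.00107, limma) and Ifnar2, a chain of the type I interferon receptor, by 1.06 ± 0.15 (adjusted p = 0.000971, limma). Control RNA of Irf7 was well above background on 2 of 4 arrays, and its ratio ran between 1.48 and 3.29 over the alternatives. Irf3 had −0.18 ± 0.09 and Tyk2 −0.06 ± 0.20. Probes of Ifnb1 and Ifna4, type I interferon ligands, were not well above background in either RNA. The brightest probes of Ifna1, Ifna2 and Ifna5 were so in both RNAs on all arrays, and had 0.15, 0.14 and 0.11. None of them passed, but over 13 alternatives they did in 2, 5 and 1. Ifna2 passed as higher with Feature Extraction's ratios (0.40, adjusted p = 0.03, limma) and as lower under centring on tested probes (−0.25, adjusted p = 0.0441, limma). Of the 4 ligand genes that could be tested, 0 rose and 1 fell, Ifnl3 with −0.27 ± 0.09 (adjusted p = 0.0275, limma), with −0.09 on its other probe and 0.45 under median centring.

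Among other sensors of foreign RNA and DNA most genes rose. Of 10 tested genes 9 rose, against 18.8% of all 15678 genes by the same count. The remaining gene, Mavs, the adaptor of the RNA helicases, did not pass at −0.004 ± 0.14. The median was 1.02, and that of the 6 tested family genes counted the same way was 2.80. Zbp1, a sensor of Z-form nucleic acid, rose by 3.24 ± 0.26 on its brightest probe (adjusted p = 4.17e-05, limma) and 4.92 on the other. The helicase gene Ifih1 rose by 2.84 ± 0.05 on its brightest probe (adjusted p = 9.72e-06, limma), Dhx58 by 1.85 ± 0.25 (adjusted p = 0.000346, limma) and Eif2ak2, which encodes the RNA-activated kinase PKR, by 1.41 ± 0.20 (adjusted p = 0.000557, limma). The other Ifih1 probe had 0.37 (adjusted p = 0.0181, limma), and its control RNA was not well above background on any array. Control RNA of Dhx58 was well above background on 1 of 4 arrays, and the gene's ratio ran between 1.73 and 3.92 over the alternatives. Cgas, whose enzyme shares the synthetase fold and is activated by DNA, rose by 0.45 ± 0.15 (adjusted p = 0.0109, limma), with 0.23 and −0.06 on its other probes. It no longer passed without replicate 3 (adjusted p = 0.0612, limma). Sting1 rose by 0.51 and no longer passed without replicate 1, 3 or 4 (adjusted p = 0.0651, 0.0818 and 0.0804, limma). Tlr3 rose by 0.73, with control RNA not well above background on any array. Under centring on tested probes Tlr3 had 0.10 and did not pass (adjusted p = 0.435, limma).

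By a fixed measure of likeness, the root mean square difference of log2 ratios over the 4 arrays from the median of the 6 tested family genes, the nearest of 15602 other genes were Il18bp at 0.12, Parp12 and Irf1 at 0.15, Gbp9 at 0.16 and Lgals3bp at 0.17. Their mean log2 ratios were 2.78, 2.70, 2.74, 2.93 and 2.91.

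**Figure D5:**
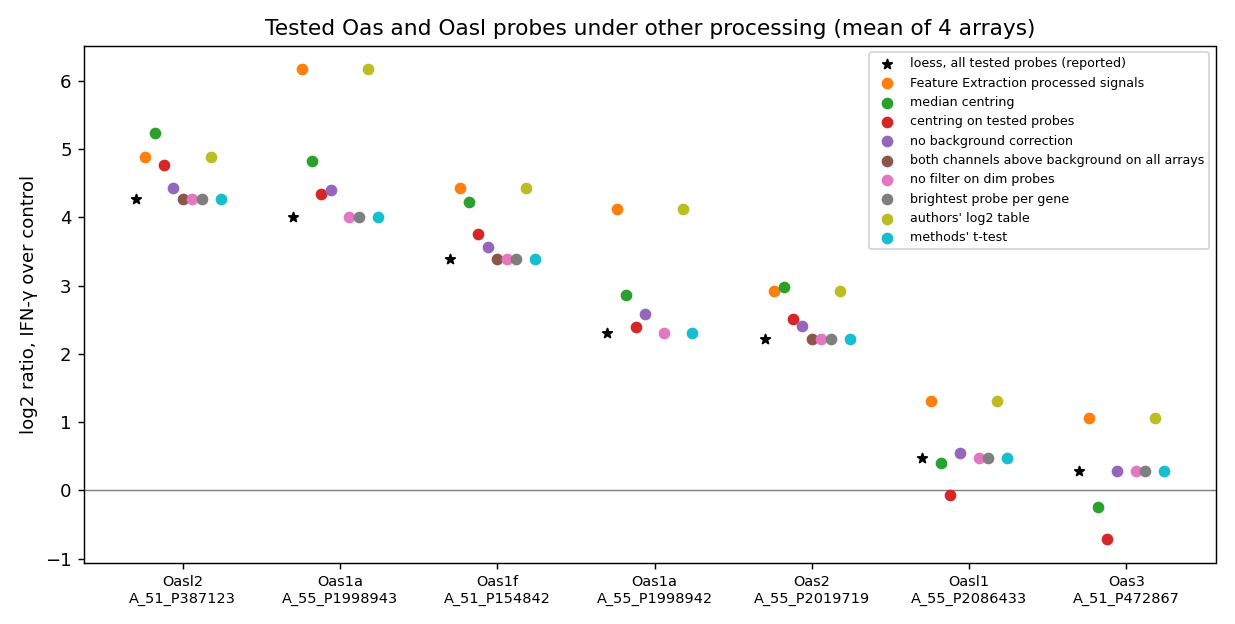
Mean log2 ratio over 4 arrays of the 7 tested Oas and Oasl probes under the reported processing (star) and the other settings (circles). Oasl2, Oas1a, Oas1f and Oas2 stay at 2.22 or above in these settings, in which no array is left out, whereas Oasl1 and Oas3 lie between −0.71 and 1.30.

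Of the 7 tested probes, those of Oasl1 and Oas3 changed sign under at least 1 alternative and the other 5 did not, as the plot of settings shows. Oasl2 lay between 4.24 and 5.24, Oas1f between 3.27 and 4.44 and Oas2 between 2.08 and 2.98 over 13 alternatives. The brighter Oas1a probe lay between 3.81 and 6.17 over 12, and the other Oas1a probe between 2.15 and 4.12 over 11. All of these were called higher each time. Not all of these alternatives are separate checks of size. Changing the filter, the probe choice or the test left these ratios as they were. Feature Extraction's ratios and the authors' deposited table gave the same values for these probes. In the authors' deposited table, which takes Feature Extraction's log ratios to log2, Oas1a A_55_P1998943 had 6.49, 6.64, 5.58 and 5.95 on arrays 1 to 4 and Oasl1 had 1.25, 1.42, 1.29 and 1.26. These are above the loess ratios for each of the 2 genes.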

How the data were processed

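RNA of treated and control C2C12 cells was measured on 4 arrays of 2 colours on 1 slide with 1 scan. The deposited files hold spot intensities that the authors read with Feature Extraction 10.7.3.1, as the file headers give it, namely median signals, median backgrounds, processed signals and the log10 ratio of Cy5 over Cy3. The authors' table holds log2 ratios. Set against the scanner log10 ratios, its slopes were 3.32 to 3.34 and its column medians −0.125 to −0.105. Its direction is Cy5 over Cy3. For the tested family probes its means over the arrays equal those of Feature Extraction's processed signals, with 4.88 for Oasl2 in both. No further centring shows in those means.

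Here medians were corrected with normexp (offset 50) and normalised by loess in limma 3.58.1 (R 4.3.3), with control spots at weight 0, spots flagged as outliers left out and spots of a probe averaged. Of 39429 probes, 26055 had 1 gene symbol through their accession, 0 several and 13374 none. The mean log2 ratio of 28933 tested probes was compared with 0 (lmFit, eBayes, two-sided, Benjamini-Hochberg over all of them). Intensities are those after loess and Aquantile. The fit was tested on simulated data. The number of arrays limits the precision. Members, lists, motifs and alternatives were chosen with earlier results of these data known. Every member probe and the genes of the fixed lists may be named. Alternatives were another normalisation, background correction, filter, probe choice, the authors' table, the methods' unpaired test and leaving out each array. Coordinates of the files' build, mm9, are not used here; a comparison of protein sequences was planned and was not made. Results for some list genes are not reported here.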

Additional observations from a re-analysis of the deposited data

Results flagged for a closer look

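Of 56 tested probes of the family and the fixed lists, 3 had 1 array far from the other 3 (Dixon's test at its 95% critical value, by which chance alone marks about 1 group in 20), and none of the 3 was a probe of a member gene. Pde12 had a log2 ratio of −0.12 on replicate 2, with 0.25 to 0.30 on the others. Mavs had −0.21 on replicate 2, with the others between 0.06 and 0.08. The Ifnar1 probe A_55_P2454784 had 0.10 on replicate 1, with 0.50 to 0.53 on the others.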

How the results depend on the processing

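Of the 7 tested family probes, 6 were called higher, and 5 to 7 under the alternatives that kept 6 or more probes in the test; requiring both RNAs well above background on all arrays left 3 probes, Oasl2, Oas1f and Oas2, and called 3. Leaving out 1 array gave 6 to 7. The median over family probes was 2.31, and 4.12 with Feature Extraction's ratios, 4.12 with the authors' deposited table, 2.98 under median centring, 3.39 with both RNAs above background and 2.80 with the brightest probe per gene; without 1 array it was 2.15 to 2.42. Median centring put the median of all tested probes at 0.50, so Oasl1 at 0.41 and Oas3 at −0.24 lay below it. Of all tested probes 4778 were called higher and 3633 lower, a share of higher calls that changed with the scaling: under median centring 16472 were higher and 6323 lower, and centring on tested probes gave 10483 and 10983. The brightest probe per gene gave 3104 and 2173, and the methods' t-test called 2364 lower. Without 1 array, calls ran between 1910 and 6326 higher and between 1153 and 5548 lower, the most without replicate 2. By the methods' t-test 418 probes were at least 2-fold higher at an unadjusted p under 0.05, and 411 after Benjamini-Hochberg adjustment, 5 of them family probes each time.

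Signs turned as follows, and the cause was not tested. Under centring on tested probes Oasl1 had −0.069, Oas3 −0.71, Oas1c −0.37, Oas1d −0.46, Ifnar1 0.16, Tyk2 0.19, Irf3 0.36, Ifna1 −0.048, Ifna2 −0.25 and Mavs 0.50. Under median centring Oas3 had −0.24, Akap7 0.37, Ifnar1 0.63, Tyk2 0.67, Irf3 0.83, Ifnl3 0.45 and Mavs 0.97. Irf2 had −0.034 with Feature Extraction's ratios and −0.034 in the authors' deposited table. Leaving out 1 array, Tyk2 lay between −0.13 and 0.032, Irf2 between −0.057 and 0.15, Mavs between −0.032 and 0.066 and Ifngr2 between −0.056 and 0.15. Signs turned without replicate 2 for Tyk2, Irf2 and Mavs, and without replicate 1 (−0.056) or 4 (−0.031) for Ifngr2. The fit is already paired by array, since treated and control RNA share each array and enter as 1 ratio. A further replicate block could not be added to 1 ratio per array. Signal near background limits Oas3, Oasl1 and the dim Oas1 genes, and no array had the dyes exchanged.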
